A study of Mus musculus with 8 samples.

Results

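The genes of melanin synthesis and of the melanosome were followed in dorsal skin of C3H mice, an inbred agouti strain. The set held 10 genes: Mitf, Pmel, Tyr, Tyrp1, Dct, Oca2, Slc45a2, Slc24a5, Mlana and Gpr143. Each was taken as the probe set whose only gene symbol in the Clariom S Mouse annotation was that of the gene, which gave 10 probe sets of the 19572 that carry 1 symbol. The 22206 probe sets tested also include 2634 without a name.

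All animals were male, entered the study at 7 weeks of age, were kept for 7 days before use, and had their backs trimmed and depilated with cream. They then received a daily topical application for 20 days, with 8 mice per group. The treatments were tieghemelin at 1%, maslinic acid, a pentacyclic triterpene acid, at 1%, and minoxidil, a drug used against hair loss, at 1%, and the control animals received Milli-Q water. For minoxidil array 2 the labels conflict, with 1% in one field and 2% in another. Each group is represented by 2 arrays of skin RNA, and the labels do not tie an array to a single mouse, so the p-values below reflect only how far these arrays differ, possibly for technical reasons. The titles of both control arrays name them as controls of tieghemelin and maslinic acid. Minoxidil was set against the same arrays, so the 3 comparisons with control share those 2 arrays. The study examined hair growth under tieghemelin and maslinic acid.

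Melanin is made in melanosomes, organelles of the melanocyte. In mouse back skin nearly all of it is made by melanocytes of the hair bulb while the follicle is growing, and production stops when the follicle regresses. MITF, the transcription factor that sets the melanocyte programme, activates the genes for the melanosome scaffold (PMEL) and for 3 related enzymes (tyrosinase, TYRP1 and DCT). Membrane transporters (OCA2, SLC45A2, SLC24A5) set the ionic conditions in the organelle, and MLANA and GPR143 take part in its formation and number. These transcripts are therefore used as a readout of pigmented, growing follicles.

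With minoxidil, Mitf, Pmel and Oca2 were higher than in control skin, by 1.80, 1.69 and 1.35 log2 units as measured. Pmel was also higher with tieghemelin (1.62) and with maslinic acid (1.30). For the tyrosinase family the reading was limited: Tyr read below background on all 8 arrays, so whether it followed them cannot be told. With all arrays the differences of Tyrp1 and Dct from control lay between -0.21 and 0.74, Tyrp1 with minoxidil being at 0.66. No member passed limma's test at an adjusted p under 0.05 in any of the 6 comparisons, with all arrays or without control array 1. The calls reported below are those at the thresholds of the study, a linear fold change of 1.7 or more with an unadjusted p of 0.05 or less. In whole skin, fewer melanocytes and less RNA per melanocyte cannot be told apart.

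The first control array stood apart from the others. Across probe sets its Pearson r with them was 0.518 to 0.538, against 0.901 to 0.966 among the other 7. The median SD between the 2 arrays of a group was 0.208 for tieghemelin, 0.221 for maslinic acid, 0.277 for minoxidil and 0.626 for control, in log2 units. Each comparison is therefore given with all 8 arrays and again without control array 1. The second fit leaves 1 control array, which is assumed to vary like the arrays of the other groups.

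Signal was judged against the median of 23 antigenomic probe sets on the same array, designed to match nothing in the mouse genome. On the log2 scale these medians for tieghemelin were 7.02 and 6.97, for maslinic acid 6.96 and 7.08, for minoxidil 7.51 and 7.33, and for control skin 7.75 and 7.61. Of the 10 members, 8 lay above the median on each of the 6 treated arrays. The number was 1 on control array 1, where only Mlana did, and 5 on control array 2. Against the 90th percentile of the same background probe sets the numbers were 4 and 4 with tieghemelin, 4 and 3 with maslinic acid, 7 and 5 with minoxidil, and 1 and 2 in control skin. Among all tested probe sets of an array, the members had a median percentile of 47.9 and 41.4 with tieghemelin, 42.4 and 36.9 with maslinic acid, 62.8 and 51.0 with minoxidil, and 22.7 and 36.3 in control skin. Most of the set was thus read in the middle or lower part of the range of these arrays, where lying above a background median does not by itself show that a gene was detected. Since that median was itself lowest with tieghemelin and maslinic acid, counts above it also move with the background.

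**Figure D1:**
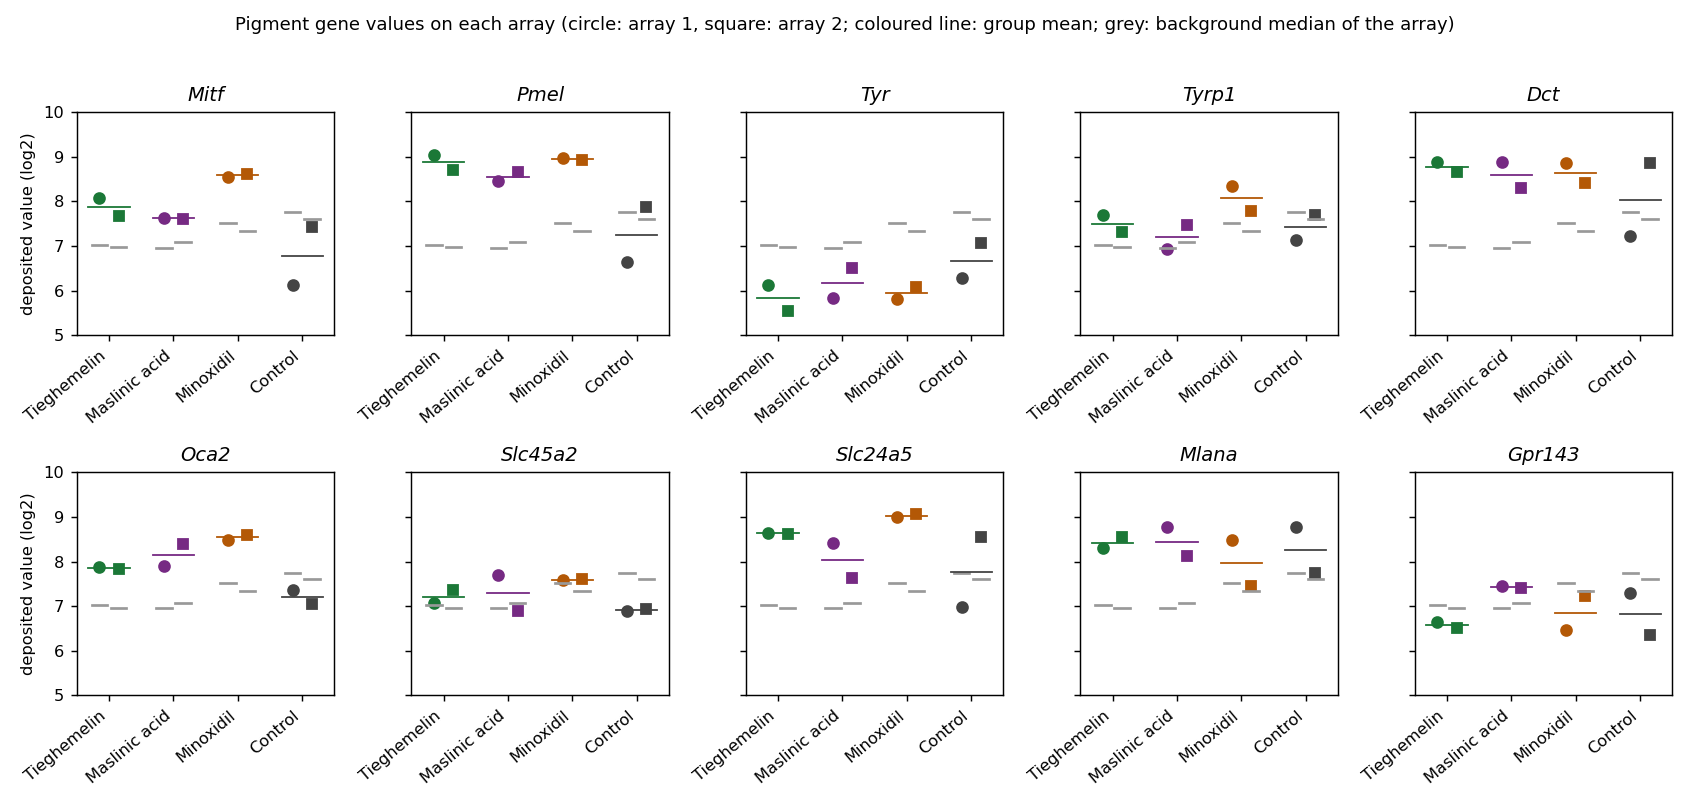
Deposited log2 value of each of the 10 genes (one panel each) on the 8 arrays, grouped as tieghemelin, maslinic acid, minoxidil and control, with circles for array 1, squares for array 2, a coloured line at the group mean and each array's background median as a grey tick. Mitf, Pmel and Oca2 lay higher on the 6 treated arrays than on both control arrays, Tyr lay under the grey tick throughout, and control array 1 was the lowest array for Mitf, Pmel, Dct, Slc45a2 and Slc24a5.

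Mitf (chromosome 6, 97807002 to 98021360, GRCm38.p6) encodes the melanocyte master transcription factor, although mast cells, osteoclasts and other cells transcribe the gene as well. Its log2 values were 8.08 and 7.68 with tieghemelin, 7.63 and 7.60 with maslinic acid, and 8.55 and 8.62 with minoxidil, against 6.13 and 7.43 in control skin. Both minoxidil arrays lay above all others, the tieghemelin arrays above the maslinic acid arrays, and both control arrays below every treated array and below background. As measured, minoxidil differed from control by 1.80 (SE 0.47, unadjusted p = 0.005, limma adjusted p = 0.44), and with the control arrays set to background this is at least 1.87-fold higher. Without control array 1 the difference was 1.15 (unadjusted p = 0.00871, limma adjusted p = 0.229), at least 1.96-fold. Over 14 alternatives the difference ran from 1.15 without control array 1 to 2.45 without control array 2, with a limma adjusted p of up to 0.841. The thresholds of the study were met under each of them, but several alternatives change the spread and not this difference. For tieghemelin the difference was 1.10 (SE 0.47, unadjusted p = 0.0484, at least 1.15-fold higher), but 0.44 without control array 1, where the unadjusted p was 0.241, and it met the thresholds under 2 of 14 alternatives. For maslinic acid it was 0.83 (unadjusted p = 0.115), and 0.18 without control array 1, so the control array decided most of its size.

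Pmel (chromosome 10, 128695888 to 128720238) encodes the protein whose fibrils form the scaffold on which melanin is laid down. It read 9.04 and 8.71 with tieghemelin, 8.45 and 8.66 with maslinic acid, and 8.97 and 8.92 with minoxidil, against 6.64 and 7.87 in control skin. The tieghemelin and minoxidil arrays overlapped, the maslinic acid arrays lay just under both, and control array 2 was the only control array above background. The difference from control was 1.62 with tieghemelin (SE 0.46, unadjusted p = 0.00753, limma adjusted p = 0.41), a 3.08-fold higher level. With maslinic acid it was 1.30 (2.46-fold, unadjusted p = 0.0219), and with minoxidil 1.69 (3.23-fold, unadjusted p = 0.00604). With control array 1 left out these became 1.01, 0.68 and 1.08, and the thresholds were met with tieghemelin (unadjusted p = 0.0172) and minoxidil (unadjusted p = 0.0122) but not with maslinic acid (unadjusted p = 0.0828). The minoxidil call held under all 15 alternatives run, and the tieghemelin call under 14 of 15, the exception being the fit without tieghemelin array 1. The maslinic acid call held under 11, and was lost without control array 1, without either maslinic acid array and with the 2 groups fitted alone.

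Tyr, Tyrp1 and Dct encode the enzymes of the pathway. Tyrosinase catalyses the rate-limiting first steps from tyrosine to dopaquinone, while DCT (dopachrome tautomerase) and TYRP1 act further along the branch that leads to brown and black eumelanin. The upstream regions of these genes are known for a short element, the M-box, with the core TCATGTG, that MITF binds. RefSeq windows of 250 bases before to 50 bases after an annotated start (GRCm38.p6) were given for 6 of the 10 genes in 8 windows, 3 of them for Mitf. They are shown here because the gene for the factor read higher with minoxidil while those enzyme genes did not meet the thresholds with all 8 arrays. The stretches below run 5′ to 3′ on the strand of the gene, with the matched word in capitals, and are from chr7:87493517-87493545 (minus strand), chr4:80834155-80834183 (plus), chr14:118052380-118052408 and chr14:118052461-118052489 (both minus), chr2:125068103-125068126 (plus) and chr7:56239562-56239589 (plus), in this order.
Tyr: gaaaaagttagTCATGTGctttgcagaag
Tyrp1: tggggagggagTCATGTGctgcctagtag
Dct, near: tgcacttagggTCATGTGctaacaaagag
Dct, far: cttggctgggaCACATGAgcccaataaag
Slc24a5: aggagactgctCACATGAttcagc
Oca2: tgagcttgctaCACATGgctggaatttt
Counted from the annotated start on which each window was built, the words begin at base -22 for Tyr, -47 for Tyrp1, -151 and -232 for Dct, -13 for Slc24a5 and -186 for Oca2. For Tyrp1 and Oca2 that start lies inside the gene span printed below, so these are not distances from the first base of the span. The Tyrp1 stretch itself lies within its span. The word TCATGTG, searched on both strands and thus also as CACATGA, stood in the windows of 4 of the 6 genes, Tyr, Tyrp1, Dct and Slc24a5, and in 3.77% of all 32851 windows. The shorter core CATGTG, or CACATG on the other strand, is contained in each longer match and stood in the windows of 5 genes, Oca2 included, and in 14.2% of all windows. The palindromic word CACGTG was in none of the 8 windows and in 7.15% of all. Such matches describe the letters only.

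Tyr (chromosome 7, 87424771 to 87493512) gave 6.13 and 5.55 with tieghemelin, 5.83 and 6.51 with maslinic acid, and 5.81 and 6.08 with minoxidil, against 6.27 and 7.06 in control skin. Relative to the background median of its array it lay at -1.70 to -0.55 log2 units, so no fold is given and the order of the groups has no meaning as a level. The measured differences from control were -0.83, -0.50 and -0.72 (unadjusted p from 0.101 to 0.299). Without control array 1, tieghemelin (-1.22) and minoxidil (-1.12) passed the thresholds as lower, again with both groups under background.

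Tyrp1 (chromosome 4, 80834123 to 80851736) read 7.69 and 7.32 with tieghemelin, 6.94 and 7.47 with maslinic acid, and 8.35 and 7.79 with minoxidil, against 7.13 and 7.69 in control skin. Only the minoxidil arrays lay above both control arrays, the second of them only just. The difference from control was 0.66 with minoxidil (SE 0.41, unadjusted p = 0.152), which missed the thresholds. It was 0.09 with tieghemelin and -0.21 with maslinic acid, where the arrays overlapped those of control. Without control array 1 the values were 0.38, -0.19 and -0.49.

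Dct (chromosome 14, 118012790 to 118052246) was among the better measured members, above even the 90th percentile of background on 7 arrays. It read 8.88 and 8.67 with tieghemelin, 8.89 and 8.30 with maslinic acid, and 8.85 and 8.41 with minoxidil, against 7.21 and 8.85 in control skin. Control array 2 stood level with the highest treated arrays, and control array 1 below its background. The differences from control of 0.74, 0.57 and 0.60 (unadjusted p from 0.218 to 0.339) turned to -0.08, -0.25 and -0.22 without control array 1. Without control array 2 they were 1.56, 1.38 and 1.42, so the sign rested on which control array was kept. Over the 7 arrays other than control array 1 Dct spanned 0.59 log2 units, the narrowest range of the 10 genes.

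Oca2 (chromosome 7, 56239593 to 56536518) encodes a melanosomal membrane protein that raises the pH of the organelle, which tyrosinase needs. Its values were 7.89 and 7.83 with tieghemelin, 7.90 and 8.38 with maslinic acid, and 8.49 and 8.60 with minoxidil, against 7.36 and 7.04 in control skin. It was the member with the closest control arrays among those with a call, and all treated arrays lay above both of them, the minoxidil arrays highest. Both control arrays were below background. Minoxidil differed from control by 1.35 (SE 0.36, unadjusted p = 0.00556, limma adjusted p = 0.44), at least 1.82-fold higher, and by 1.51 without control array 1 (unadjusted p = 0.00189, limma adjusted p = 0.163). The thresholds were met under all 14 alternatives, with differences from 1.19 to 1.51 and a limma adjusted p of up to 0.841. With maslinic acid the difference was 0.94 (unadjusted p = 0.0303, at least 1.37-fold higher), and 1.10 without control array 1 (unadjusted p = 0.0124). That call held under 9 of 14 alternatives. With tieghemelin it was 0.66 (unadjusted p = 0.102, at least 1.13-fold), and 0.82 without control array 1, where it met the thresholds at an unadjusted p of 0.0472.

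Slc24a5 (chromosome 2, 125068127 to 125088677) encodes a potassium-dependent sodium-calcium exchanger needed for normal pigmentation. It gave 8.64 and 8.63 with tieghemelin, 8.42 and 7.64 with maslinic acid, and 9.0 and 9.05 with minoxidil, against 6.98 and 8.56 in control skin. Minoxidil and tieghemelin arrays lay above both control arrays, and maslinic acid array 2 lay far below control array 2. The difference with minoxidil, 1.26 (SE 0.55), missed the thresholds at an unadjusted p of 0.0505, and was 0.47 without control array 1 and 2.05 without control array 2. It was 0.86 with tieghemelin and 0.26 with maslinic acid, and 0.07 and -0.53 without control array 1.

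Slc45a2 (chromosome 15, 11000721 to 11029233) encodes a membrane transporter needed for normal melanosome pH. It was dim everywhere, with 7.08 and 7.35 for tieghemelin, 7.70 and 6.90 for maslinic acid, and 7.58 and 7.61 for minoxidil, against 6.88 and 6.94 in control skin. No array exceeded the 90th percentile of background. The control arrays lay close together here (SD 0.043) and were both below background, and minoxidil lay 0.68 above them (SE 0.39, unadjusted p = 0.117). Since the minoxidil arrays read below the background medians of the control arrays, no fold is given. The differences with tieghemelin and maslinic acid were 0.30 and 0.39, neither larger than the SE of 0.39.

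Mlana (chromosome 19, 29697541 to 29708447), which encodes a melanosomal protein that binds PMEL, was above background on all 8 arrays, the only member to be so. It read 8.29 and 8.56 with tieghemelin, 8.76 and 8.12 with maslinic acid, and 8.48 and 7.45 with minoxidil, against 8.78 and 7.74 in control skin. The groups overlapped in each comparison with control, and control array 1, the lowest array for 5 other members, was the highest for this one. The differences from control were 0.17, 0.18 and -0.29, with unadjusted p-values of 0.589 and above, and 0.69, 0.70 and 0.23 without control array 1.

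Gpr143 (chromosome X, 152781921 to 152808651) encodes the receptor of ocular albinism, which limits melanosome size. Only the maslinic acid arrays, at 7.46 and 7.41, exceeded background, against 6.64 and 6.50 with tieghemelin, 6.46 and 7.23 with minoxidil, and 7.29 and 6.34 in control skin. The differences from control were 0.61 with maslinic acid (SE 0.45, unadjusted p = 0.207), -0.25 with tieghemelin and 0.03 with minoxidil. The last changed sign to -0.04 when arrays were shifted to a common median. In the fit lacking control array 1 the maslinic acid difference was 1.09 and met the thresholds (unadjusted p = 0.0209), but its arrays read below the background median of control array 2, so no fold is given.

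**Figure D2:**
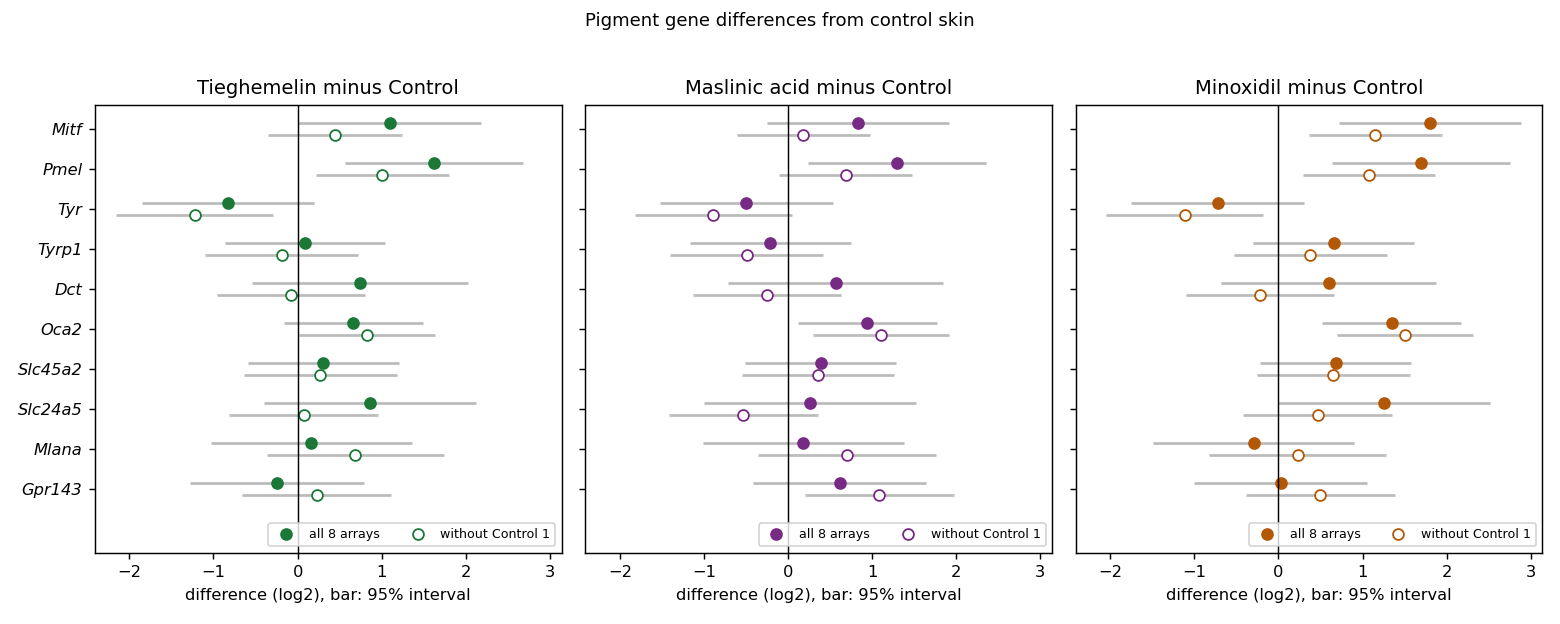
Log2 difference from control of each gene (rows) with 95% intervals from limma, for tieghemelin, maslinic acid and minoxidil, with all 8 arrays (filled) and without control array 1 (open). The minoxidil intervals of Mitf, Pmel and Oca2 lie above 0 in both fits, while those of Dct span 0 in both.

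Counted over the set, 8 of 10 members were higher than control with tieghemelin, with a median log2 difference of 0.48, where 52.4% of all probe sets were higher. Mitf and Pmel met the thresholds, 2 of 10, beside 7.02% of all probe sets called higher and 4.73% called lower. The arrays did not overlap for 5 members in the higher direction (22.2% of all probe sets) and for Tyr in the lower (18.4%). Without control array 1 the median was 0.25, and Pmel and Oca2 were called higher (6.63% of all) and Tyr lower (7.12%).

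With maslinic acid 8 of 10 were higher, with a median of 0.48, where 52.7% of all probe sets were higher. Pmel and Oca2 were called, 2 of 10 beside 6.39% of all probe sets called higher and 4.45% lower, and 4 members did not overlap in the higher direction (20.8% of all) and none in the lower (17.9%). On leaving out control array 1 the median was 0.27, 6 members were higher and 4 lower, and Oca2 and Gpr143 were called higher (6.21% of all) and none lower (6.57%).

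With minoxidil 8 of 10 were higher, with a median of 0.67, against 0.06 over all probe sets, of which 53.3% were higher. Mitf, Pmel and Oca2 were called, 3 of 10 beside 6.98% of all probe sets called higher and 4.29% lower, and 6 members did not overlap in the higher direction (20.6% of all) and Tyr in the lower (15.6%). Without control array 1 the median was 0.48, the same 3 genes were called higher (6.53% of all) and Tyr lower (6.38%). With all 8 arrays, Mitf, Oca2 and Pmel ranked 193, 226 and 254 by p in limma among the 22206 probe sets. All 3 ranked further down without control array 1, Oca2 by the least. These counts describe a set chosen with such values known, and carry no test.

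No probe set of the array passed an adjusted p under 0.05 in limma with all 8 arrays in any of the 3 comparisons with control (0 of 22206, or 0%, each). At an unadjusted p of at most 0.05 there were 2609 with tieghemelin, 2409 with maslinic acid and 2502 with minoxidil. With control array 1 left out, 79 (0.356%), 1 (0.0045%) and 1 (0.0045%) probe sets passed the adjusted test, and no member was among them. Without control array 2, which leaves the control array that stood apart, the differences of Mitf, Pmel and Dct from control were larger. In the same order of treatments they were 1.75, 1.48 and 2.45 for Mitf. For Pmel they were 2.24, 1.92 and 2.31, and for Dct 1.56, 1.38 and 1.42.

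Between treatments no member met the thresholds with all arrays, and no probe set had an adjusted p under 0.05 in limma (0%), with 732, 800 and 68 at an unadjusted p of at most 0.05. Of all probe sets, 1.77% were called higher and 1.53% lower for tieghemelin against minoxidil, 1.95% and 1.65% for maslinic acid against minoxidil, and 0.14% and 0.167% for tieghemelin against maslinic acid. Tieghemelin against minoxidil gave 2 members higher and 8 lower, with a median of -0.33, and 5 members did not overlap in the lower direction (23.6% of all probe sets) and none in the higher (20.3%). Mitf differed by -0.71 (95% interval -1.79 to 0.38) and Oca2 by -0.68 (-1.51 to 0.14), while Pmel differed by -0.07 (-1.13 to 0.99). Without control array 1, which adds to the shared spread but not to these means, the intervals were -1.35 to -0.06 for Mitf and -1.35 to -0.02 for Oca2, with fold changes under the threshold.

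Maslinic acid against minoxidil gave 3 members higher and 7 lower, with a median of -0.35, and 5 did not overlap in the lower direction (23.5% of all probe sets) and Gpr143 in the higher (20.1%). With control array 1 out of the fit, 3 members were called lower, beside 5.79% of all probe sets: Mitf at -0.97 (unadjusted p = 0.00734, limma adjusted p = 0.236), Slc24a5 at -1.0 (unadjusted p = 0.0113) and Tyrp1 at -0.87 (unadjusted p = 0.0261). With all 8 arrays the same differences had unadjusted p-values of 0.0739, 0.105 and 0.0695.

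Tieghemelin against maslinic acid gave 5 members higher and 5 lower, with a median of 0.08. The arrays did not overlap for Mitf, Pmel and Slc24a5 in the higher direction (15.7% of all probe sets) and for Oca2 and Gpr143 in the lower (14.9%). The 95% intervals were -0.82 to 1.35 for Mitf, -0.73 to 1.38 for Pmel, -0.65 to 1.87 for Slc24a5 and -1.11 to 0.55 for Oca2, so differences of about 1 log2 unit either way were within reach of the arrays' error. Gpr143 differed by -0.86, and its 95% interval (-1.89 to 0.17) includes equal levels. Set to background on the tieghemelin arrays, it read at least 1.35-fold lower there as measured. It met the thresholds without control array 1 (unadjusted p = 0.0242), where 0.878% of all probe sets were called lower.

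The members did not move as a block. Over the 7 arrays other than control array 1, Mitf followed the mean of the other 9 most closely (Pearson r of 0.88), then Pmel (0.65), Oca2 (0.62), Slc45a2 (0.56), Slc24a5 (0.37) and Tyrp1 (0.34). Dct (-0.13), Gpr143 (-0.14), Mlana (-0.22) and Tyr (-0.70) did not follow it. Of the 45 pairs of members 24 correlated above 0, with a median r of 0.10, from -0.73 for Slc45a2 with Tyr to 0.80 for Oca2 with Pmel. Mitf correlated with Pmel at 0.75, with Oca2 at 0.73, with Slc24a5 at 0.71 and with Tyrp1 at 0.69. These values are descriptions over 7 arrays in 4 groups that share 1 normalization.

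The named probe sets most like the mean pattern of the 10 genes over those 7 arrays were Synpr, Mgat4e, Nkx6-2, Kcnn2 and Nucb1, with r of 0.992, 0.985, 0.975, 0.975 and 0.973, among 10368 candidates that varied and were above background on at least 4 arrays. With so few arrays 84 candidates exceeded an r of 0.9. Over all 8 arrays Synpr (0.998) and Nucb1 (0.961) stayed close to the pattern, and Mgat4e (0.316), Kcnn2 (0.327) and Nkx6-2 (-0.146) did not.

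Other genes of the melanocyte lineage had smaller median differences from control. Among 15 further transcription factors, receptors and melanocyte genes, 10 were higher than control with tieghemelin, 10 with maslinic acid and 11 with minoxidil, with medians of 0.27, 0.28 and 0.25. The number called higher was 0, 2 and 1, beside 7.02%, 6.39% and 6.98% of all probe sets, so these shares lay near that of the whole array. When control array 1 was omitted the medians were 0.02, 0.05 and 0.04, with 8 of 15 higher in each comparison. The number called higher was then 0, 1 and 0, and 2, 2 and 0 were called lower (7.12%, 6.57% and 6.38% of all). The 2 called with maslinic acid were Erbb3, a neuregulin receptor of the neural crest lineage, at 1.41 (unadjusted p = 0.00637), and Gpnmb, a relative of Pmel also made by macrophages, at 0.97 (unadjusted p = 0.0270). Both control arrays of Erbb3 lay below background, so its level with maslinic acid was at least 1.78-fold higher, and it was still called in the fit that lacks control array 1, at 1.28 as measured. Gpnmb was not, at 0.71. The 1 called with minoxidil was Tspan10, a tetraspanin gene, at 1.12 (unadjusted p = 0.0208), which also lost its call there, at 0.72. The genes called lower in that fit were Tfap2a, a neural crest transcription factor, at -1.02 and -0.84, and Kit at -1.27 and -1.34, with tieghemelin and maslinic acid in this order.

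Sox10, the neural crest factor upstream of Mitf, read 8.50 and 8.26 with tieghemelin, 8.76 and 9.47 with maslinic acid, and 8.97 and 8.82 with minoxidil, against 9.32 and 8.38 in control skin. Its differences of -0.47, 0.26 and 0.04 were within the spread between control arrays. Kit, the receptor that melanocytes and mast cells need, read 9.22 and 8.59 with tieghemelin, 8.42 and 9.25 with maslinic acid, and 8.83 and 10.20 with minoxidil, against 8.79 and 10.17 in control skin. Kit overlapped between groups in each of these comparisons, and its differences were -0.58, -0.65 and 0.03. Pax3, a further activator of Mitf, lay between 7.79 and 8.30 on 7 arrays and at 10.65 on control array 1. Mc1r, the melanocortin receptor that switches follicles to eumelanin, differed by 0.29, 0.01 and 0.25, and Ednrb, the endothelin receptor of melanoblasts, by 1.03, 0.77 and 0.50, none at the thresholds.

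The ligands that act on these cells showed no common direction. Of 9 measured ligands and modifiers, 2 were higher than control with tieghemelin, 5 with maslinic acid and 4 with minoxidil, with medians of -0.11, 0.03 and -0.12, and 0.14, -0.05 and -0.20 without control array 1. With all arrays, 2 were called lower with minoxidil, beside 4.29% of all probe sets, and none in the other comparisons with control. They were Corin, a dermal papilla protease that dampens agouti signalling, at -1.21, and Foxn1, a keratinocyte factor that directs pigment transfer to the hair cortex, at -0.94, the second below background on all arrays of both groups. Neither was called once control array 1 was left out, at -0.61 and -0.83. Asip, the agouti signal itself, was not analysed here. Kitl, the ligand of KIT, read 8.41 and 9.37 with tieghemelin, 9.22 and 9.57 with maslinic acid, and 9.20 and 8.77 with minoxidil, against 7.93 and 9.92 in control skin. All treated arrays lay between the control arrays, so without control array 1 Kitl read lower than control in each treated group. Fgf2, also on this list, read 8.12 and 8.56 with tieghemelin, 8.17 and 7.64 with maslinic acid, and 7.44 and 8.37 with minoxidil. Its control arrays read 7.83 and 6.78, the second below background and below every treated array. Pomc, the precursor of melanocortins, and Edn3, the ligand of EDNRB, differed by at most 0.37 in size.

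Of 28 genes of melanosome biogenesis and transport, which serve other lysosome-related organelles as well, 11 were higher than control with tieghemelin, 12 with maslinic acid and 16 with minoxidil (medians -0.18, -0.11 and 0.11). Without control array 1 these numbers were 13, 18 and 18 (medians -0.03, 0.09 and 0.30). With all arrays 1 was called lower with tieghemelin, 1 lower with maslinic acid and 1 higher with minoxidil (4.73%, 4.45% and 6.98% of all probe sets). Sytl2, a Rab27 effector, was called higher with minoxidil at 1.30, and 0.48 without control array 1. Hps4, a subunit of a complex that exchanges the nucleotide of Rab32 and Rab38, read 7.05 and 7.31 on the tieghemelin arrays and 7.02 and 6.49 on those of maslinic acid, against 9.74 and 8.22 in control skin. Its differences of -1.80 (unadjusted p = 0.0148) and -2.22 (unadjusted p = 0.00505) met the thresholds, as they did without control array 1 at -1.04 and -1.46.

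Markers of the follicle's growing parts were set beside the pigment genes. Of 15 measured hair matrix and shaft genes, 5 were higher than control with tieghemelin, 7 with maslinic acid and 4 with minoxidil, with medians of -0.14, -0.11 and -0.38. Their summed linear signal was 3905 to 4188 with tieghemelin, 3775 to 4758 with maslinic acid and 3288 to 3413 with minoxidil, against 4394 to 4545 in control skin, and 6 to 8 of the 15 were above background on an array. Of 9 inner root sheath genes, which are made by growing follicles, 1 was called lower with tieghemelin, 1 with maslinic acid and 4 with minoxidil (4.73%, 4.45% and 4.29% of all probe sets), with medians of -0.01, 0.04 and -1.09. Tchh, a gene of the sheath granules, was called higher with maslinic acid at 1.12. In the fit lacking control array 1 the sheath medians were -0.44, -0.27 and -0.84, with 3, 3 and 1 of the 9 genes higher than control. Krt28 read 8.30 and 8.18 with tieghemelin, 8.31 and 8.32 with maslinic acid, and 7.30 and 7.18 with minoxidil. In control skin it read 9.21 and 9.35. Krt72 was among the 4 of 9 sheath genes higher than control with minoxidil. Its means were 9.44 with minoxidil and 9.22 in control skin, where its arrays read 7.08 and 11.36. The minoxidil arrays of Krt28 lay below background, which makes it at least 3.62-fold lower than in control skin. Krt71 ranged from 8.89 to 11.01 on the treated arrays and read 9.03 and 13.97 in control skin. The proliferation genes differed among themselves: Mki67 was lower than control by -0.13, -0.37 and -0.78 and Mcm2 higher by 0.83, 1.01 and 1.20, and the median of 11 cell cycle genes was 0.37, 0.43 and 0.24, or 0.16, 0.06 and 0.18 without control array 1. With minoxidil, where Mitf, Pmel and Oca2 were called higher, 11 of the 15 matrix and shaft genes and 5 of the 9 sheath genes read lower than control, and 11 and 8 without control array 1.

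**Figure D3:**
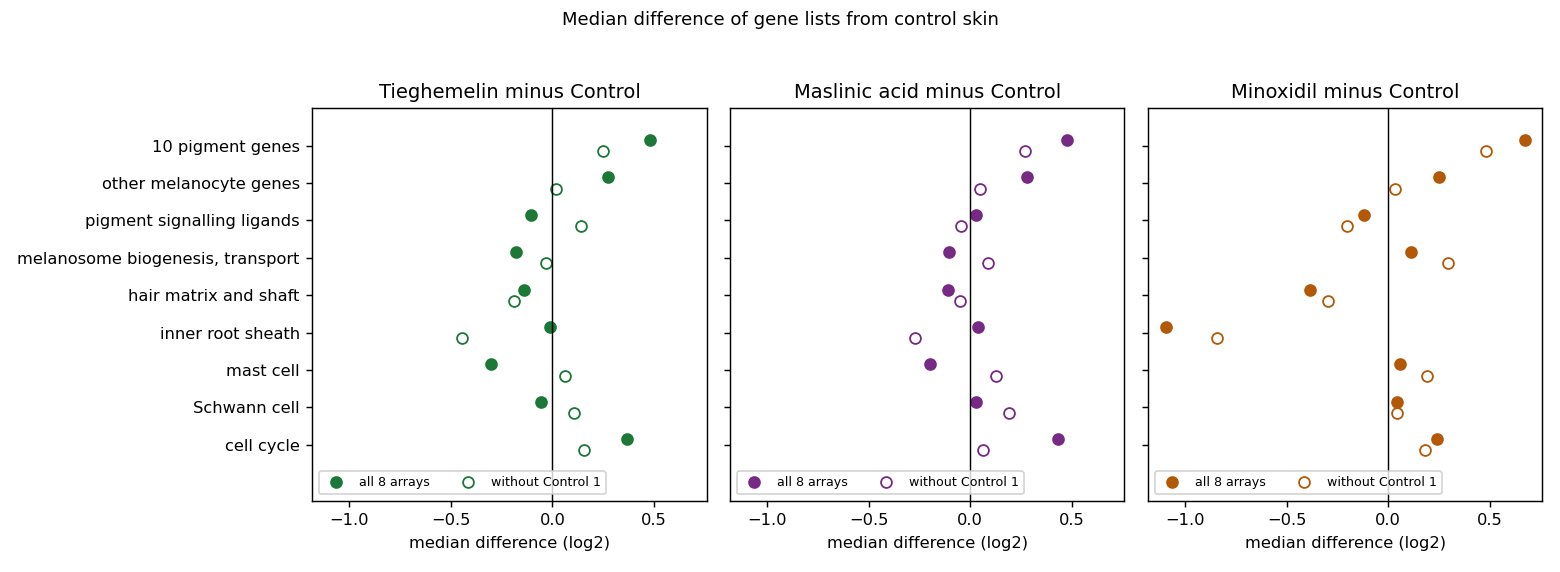
Median log2 difference from control of each gene list (rows) under tieghemelin, maslinic acid and minoxidil, with all 8 arrays (filled) and without control array 1 (open). Among the lists plotted, the 10 pigment genes have the highest median in each panel with all arrays, at 0.48, 0.48 and 0.67, and the inner root sheath has the lowest with minoxidil, at -1.09.

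Other cell types in the skin share some of these transcripts. Mast cells express Mitf and Kit, and the 10 mast cell markers had medians of -0.30 with tieghemelin, -0.20 with maslinic acid and 0.06 with minoxidil, or 0.06, 0.12 and 0.19 without control array 1. Fcer1a, a chain of the mast cell IgE receptor, read 7.79 and 7.70 with tieghemelin, 8.14 and 7.57 with maslinic acid, and 8.64 and 8.76 with minoxidil, against 7.86 and 7.78 in control skin. It was the only 1 of the 10 markers called with minoxidil, at 0.88 (unadjusted p = 0.0395), beside 6.98% of all probe sets called higher. Of the 10 markers, 6 read higher than control with minoxidil and 4 lower. Without control array 1 the difference of Fcer1a was 0.92, and the part of mast cells in the Mitf result was not tested. The summed signal of the 10 markers was 2374 to 3113 with tieghemelin, 2437 to 3143 with maslinic acid and 2685 to 3727 with minoxidil, against 3263 to 3362 in control skin. In each treated group 2 of the 10 markers were above background on no array, and in control skin 1. The 7 measured Schwann cell markers, which include Sox10, had medians of -0.05, 0.03 and 0.04. Skeletal muscle markers moved most: the summed signal of 22 genes was 9960 to 14881 with tieghemelin, 17161 to 144710 with maslinic acid and 46946 to 90946 with minoxidil, against 548558 to 805774 in control skin. The part of this difference in tissue make-up in the values of the pigment genes was not tested. The summed signal of 11 melanocyte markers, the 10 members and Sox10, was 2796 to 3091 with tieghemelin, 2988 to 3035 with maslinic acid and 3397 to 3729 with minoxidil, against 2177 to 2469 in control skin. On each treated array 9 of the 11 were above background. On the control arrays 2 and 6 were, and 5 were above it on neither, so much of the control sums is background signal.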

How the data were processed

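The authors' deposited values for 8 Clariom S Mouse arrays were used. Per the series' design text and the submitters' processing notes, scans were normalised in Transcriptome Analysis Console 4.0.1, and Affymetrix Expression Console and RMA are also named. The deposited values were read as log2 from their range, because the labels give no scale. RMA is meant to make arrays alike in distribution, which largely removes differences in total signal. The deposited values of control array 1 were not fully alike the others. Over the tested probe sets its SD was 1.32 and its median 7.96. The other 7 arrays had SDs of 1.62 to 1.69 and medians of 8.03 to 8.06. A genome build is not given in the sources used here.

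The 6640 control probe sets were left out. All other 22206 were fitted with limma 3.58.1 in R 4.3.3 (lmFit and eBayes, 4 residual degrees of freedom, Benjamini-Hochberg over all probe sets of a comparison), and tested on simulated data. The smallest exact 2-sided permutation p for 2 arrays against 2 is 0.33, so no permutation test was used. The number of arrays limits the precision. A group with no array above background is given as "at least" a fold, its arrays set to the higher of their value and the background median, or with no fold where that left none. Such a bound allows for background only, not for the spread between arrays. Same-numbered arrays did not deviate together (r of -0.17 to 0.09), so they were not treated as pairs.

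The members and the lists were chosen with earlier results of these data known. All members are named. From each list, up to 4 genes per comparison at the study's thresholds could be named by size of difference, along with Sox10, Pax3, Kit, Kitl, Mc1r, Pomc, Ednrb, Edn3 and Asip, which was not analysed here. Keratin and proliferation genes that met the thresholds in any comparison fall under the same rule. The 5 probe sets most like the members were taken by Pearson r, among those with an SD of at least 0.3 that were above background on at least 4 arrays. Gene names came from the platform annotation and positions and promoter windows from RefSeq (GRCm38.p6). A planned comparison of the tyrosinase family proteins was not run here. Alternatives tried were a block for replicate number, a filter on brighter probe sets, quantile normalization, a common median, trend and robust eBayes, no moderation, the 2 groups alone, other background and likeness settings, and leaving out each array.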

Additional observations from a re-analysis of the deposited data

How the results depend on the processing

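The 10 pigment genes kept a positive median difference from control under all alternatives run for the 3 comparisons with control, and no gene called with all 8 arrays changed sign. Dct, Slc24a5 and Tyrp1 were higher than control with all 8 arrays but lower without control array 1 in some comparisons. This held for Dct in each comparison, for Slc24a5 with maslinic acid and for Tyrp1 with tieghemelin. Among the values of single genes under the alternatives, 817 stayed on their side of the thresholds, 25 newly met them and 22 no longer did. Leaving out 1 array moved the median between 0.25 and 0.54 for tieghemelin, 0.16 and 0.67 for maslinic acid, and 0.48 and 1.06 for minoxidil, against control. The called members then numbered 0 to 4, 0 to 4 and 3 to 6, and the called probe sets 815 to 10549, 773 to 10499 and 1189 to 10508. Probe sets at an adjusted p under 0.05 (limma) numbered 0 to 8427, 0 to 8282 and 0 to 8363, the highest values without control array 2.

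Between treatments, leaving out 1 array gave medians of -0.37 to -0.23 for tieghemelin against minoxidil, -0.35 to -0.31 for maslinic acid against minoxidil, and -0.016 to 0.25 for tieghemelin against maslinic acid. Called members were 0, 0 to 3 and 0 to 1, and called probe sets 223 to 2314, 301 to 2463 and 27 to 347. Probe sets at an adjusted p under 0.05 (limma) stayed at 0, where 732, 800 and 68 met an unadjusted p of at most 0.05 with all arrays.

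With the 2 groups fitted alone, the called probe sets were 964 for tieghemelin, 821 for maslinic acid and 683 for minoxidil against control, with 1, 0 and 3 members. The same fit called 2320 for tieghemelin against minoxidil, 2354 (3 members) for maslinic acid against minoxidil, and 363 (1 member, Gpr143) for tieghemelin against maslinic acid. Without moderation they were 1570 (1 member), 1473 and 1467 against control. Only 4 members are among the brighter probe sets, which leaves fewer genes: there the medians were 0.80, 0.41 and 0.93 against control, with 1 member called each, among 1346, 1219 and 1265 probe sets. Between treatments that filter gave medians of 0.037 (sign turned), -0.21 and 0.25, and 355, 376 and 23 probe sets. A common median or quantile normalization left 1 member called with tieghemelin, Mitf being lost, and the cause was not tested.

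The replicate numbers did not pair the arrays. With the replicate block, 2565 probe sets were called for tieghemelin, 2316 for maslinic acid and 2450 for minoxidil against control, and 634, 644 and 51 between treatments, with 1, 2, 3, 0, 0 and 0 members and unchanged medians (0.48, 0.48, 0.67, -0.33, -0.35 and 0.08). A crossed replicate block for tieghemelin against maslinic acid, chosen after seeing the data, called 62. Over the 8 arrays the members above background summed to 54, and to 30 with the 90th percentile of background. Of the 5 genes most like the members, 1 was shared when all 8 arrays were used and 3 with Spearman's rho. Signal near background limits Tyr, Slc45a2, Gpr143 and Tyrp1 most.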
